A study of Homo sapiens with 6 samples.

Results

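Kinesins are motor proteins that use ATP to walk along microtubules, or to take microtubules apart at their ends. The mitotic kinesins build the spindle, move chromosomes and finish cytokinesis, and their mRNAs are made mainly late in the cell cycle. The transport kinesins carry vesicles, mitochondria and other cargo between mitoses. In a liver cell they work on secretory vesicles, endosomes and lysosomes along polarised microtubules.

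The kinesin genes were the protein-coding genes of GENCODE release 29 whose symbols are those of kinesin motor subunits (KIF and KIFC with their number), the kinesin-2 accessory subunit KIFAP3 or the kinesin-1 light chains (KLC). A set of 44 such genes was found among the 29908 genes of the expression table. By their best-known work, 13 were grouped as mitotic, 22 as transport and 9 as other kinesins. KIF2B, KIF19 and KIF25 also carry such names and were not analysed here. CENPE, a kinetochore kinesin, has a symbol of another form and was listed among the partners of the mitotic kinesins.

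Expression was measured by RNA sequencing in Hep3B cells, a line established from a human hepatocellular carcinoma. Hep3B-Con cells carried a control lentivirus, and Hep3B-KD cells carried a lentivirus with a short hairpin RNA against DAGLA, the enzyme that makes the endocannabinoid 2-AG from diacylglycerol. Both lines were infected at a multiplicity of infection of 5 and selected with puromycin, and each group had 3 libraries. The contrast therefore rests on 1 cell line, 1 hairpin and cells selected as stable lines, and effects of the line or hairpin cannot be told apart from those of DAGLA. The comparison asked which kinesin mRNAs differed when DAGLA was reduced.

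Levels are FPKM, reads scaled to exon length and library total. Log2 fold changes are Hep3B-KD against Hep3B-Con on the log2(FPKM + 0.1) scale, which understates changes of low genes, and are given with their standard error (SE). Adjusted p-values are from limma with Benjamini-Hochberg adjustment over the 14221 genes whose mean FPKM reached 0.5, and 0.05 was the threshold. The libraries held 15861039 to 17572714 reads. DAGLA stood at 9.42, 9.4 and 9.02 FPKM in Hep3B-Con and at 4.62, 4.46 and 4.78 in Hep3B-KD. That was a log2 fold change of -0.99 (SE 0.0441, limma adjusted p = 5.25e-06). All 7 hepatocyte lineage markers looked for were expressed, with ALB above the others at 2040 FPKM on average in Hep3B-Con and 3310 in Hep3B-KD. Markers of other cell types were low. PTPRC stayed at or under 0.0377 and VWF at or under 0.00554 FPKM, PECAM1 and COL1A2 were under the filter, and COL1A1 averaged 0.745 FPKM in Hep3B-Con and 0.271 in Hep3B-KD. CD68 was not analysed here.

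The promoters of the kinesins that the results turn on are shown first, because the mitotic class shared sequence that the transport class mostly lacked. Genes of late cell cycle phases often carry a CCAAT box, bound by NF-Y, followed by a CHR (cell cycle genes homology region). RefSeq promoters, from 250 bases before to 50 bases after the start of the gene on GRCh38.p14, were found for 35 of the 44 kinesins. The letters TTTGAA (CHR) and CCAAT were searched on both strands, so that they can also read TTCAAA and ATTGG. Each line below runs 5′ to 3′ on the gene's strand, from 80 bases before the start to 20 after it, with the matches in capitals. The first 4 belong to mitotic kinesins that were lower in Hep3B-KD: KIF20A (chr5:138179032-138179131, plus strand), KIFC1 (chr6:33391743-33391842, plus), KIF18B (chr17:44947754-44947853, minus) and KIF4A (chrX:70290024-70290123, plus).
KIF20A: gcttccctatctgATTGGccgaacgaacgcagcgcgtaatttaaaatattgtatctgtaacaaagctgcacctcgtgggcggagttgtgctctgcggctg
KIFC1: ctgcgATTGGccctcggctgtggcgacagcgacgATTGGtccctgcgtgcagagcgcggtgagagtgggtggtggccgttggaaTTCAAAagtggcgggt
KIF18B: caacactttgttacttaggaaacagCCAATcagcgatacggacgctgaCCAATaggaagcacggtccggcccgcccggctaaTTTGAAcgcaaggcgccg
KIF4A: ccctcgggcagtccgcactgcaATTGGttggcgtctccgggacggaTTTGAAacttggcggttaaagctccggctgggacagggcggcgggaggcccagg

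The next 3 belong to the mitotic kinesins that were higher in Hep3B-KD: KIF11 (chr10:92593050-92593149, plus), KIF15 (chr3:44761714-44761813, plus) and KIF18A (chr11:28108137-28108236, minus). In KIF15 the capitals before the CHR are an E2F match, the letters GCGCCAAA.
KIF11: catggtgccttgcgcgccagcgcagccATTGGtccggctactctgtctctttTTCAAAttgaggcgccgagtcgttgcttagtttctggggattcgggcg
KIF15: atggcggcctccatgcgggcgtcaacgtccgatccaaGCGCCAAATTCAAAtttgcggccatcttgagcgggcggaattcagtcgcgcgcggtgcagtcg
KIF18A: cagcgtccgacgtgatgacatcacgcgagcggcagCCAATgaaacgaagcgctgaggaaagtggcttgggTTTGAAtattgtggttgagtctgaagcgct

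The last 3 belong to transport kinesins that were higher: KIF5B (chr10:32056406-32056505, minus), KIF21A (chr12:39443101-39443200, minus) and KIF3A (chr5:132737527-132737626, minus).
KIF5B: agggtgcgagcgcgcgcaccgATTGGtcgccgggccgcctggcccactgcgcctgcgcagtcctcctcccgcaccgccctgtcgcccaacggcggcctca
KIF21A: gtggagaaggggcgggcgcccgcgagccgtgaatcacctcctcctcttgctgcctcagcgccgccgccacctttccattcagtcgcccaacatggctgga
KIF3A: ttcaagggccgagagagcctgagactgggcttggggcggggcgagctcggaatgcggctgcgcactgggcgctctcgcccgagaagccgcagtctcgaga

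Over the whole promoters, the CHR letters stood in 10 of 13 mitotic kinesins (76.9%), in 1 of 15 transport kinesins and in 0 of 7 others, beside 15.2% of all 35116 RefSeq promoters. The exception among the transport kinesins was KIF5B, whose match lay 140 bases before the start (position -140). A CCAAT box stood in 11 of 13 mitotic kinesins (84.6%), 4 of 15 transport kinesins and 3 of 7 others, beside 34.6% of all promoters. The E2F letters searched (TTTGGCGC, TTTCGCGC, TTTCCCGC and TTTGCCGC, both strands) stood in KIF15 alone of the 35 kinesins, beside 3.31% of all promoters. KIF2C, KIF20A and KIF22 were the mitotic kinesins without the letters TTTGAA, and other spellings of a CHR were not searched. All of KIF2C, KIF20A and KIF22 were lower in Hep3B-KD. The CHR letters stood in KIFC1, KIF18B and KIF4A, which were lower, and in KIF11, KIF15 and KIF18A, which were higher. The rises of KIF11, KIF15 and KIF18A lost their calls within bins of GC content, as given below. Whether the letters bear on the direction of change was not tested. The class counts are per gene, with a match at any listed start, whereas the shares of all promoters are per single promoter. KIF4B, a copy of KIF4A, counts beside it with both motifs, so these matches are not independent. A match is a description of the letters and not a shown binding site. For KIF11, KIF14, KIF18B and KIF20B the bases after the RefSeq start stood in no GENCODE transcript of the gene. Positions from the start are less certain for these mitotic kinesins.

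**Figure D1:**
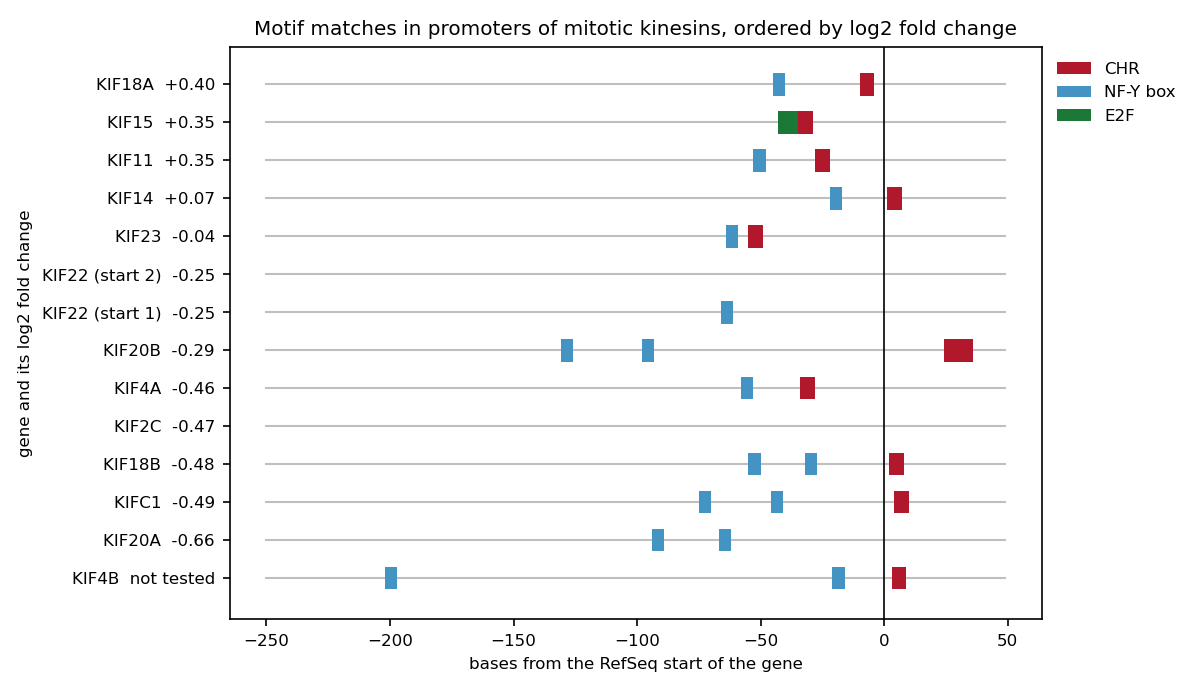
Matches to the CHR (red), the CCAAT box bound by NF-Y (blue, NF-Y box) and E2F (green) in the RefSeq promoters of the mitotic kinesins, on an axis of bases from the gene's start, with genes ordered by their log2 fold change of Hep3B-KD against Hep3B-Con. The 6 genes that fell and the 3 that rose both include promoters with a CCAAT box and a CHR, and KIF2C has no match.

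Of the 44 kinesins, 37 passed the filter and were tested. After knockdown 14 of the 37 rose and 8 fell, 37.8% and 21.6%, whereas 36.1% of all 14221 genes were higher and 23.8% lower. The share of kinesins that changed was thus near that of all genes. Only KIF3A (higher) and KIF21B (lower) also passed a 2-fold change, beside 8.83% of all genes. KIF3A passed it only just, with a log2 fold change of 0.86 without Hep3B-Con replicate 1 and 0.92 after centring on the median log ratio. The groups did not overlap for 26 of the 37, 70.3% beside 66.9% of all genes. The classes differed in direction, which was not tested. The median log2 fold change was -0.27 over the 12 mitotic kinesins tested, 0.20 over the 18 transport kinesins and 0.23 over the 7 others, and 0.11 over all genes tested. After each library was centred on its median log ratio, the median of all genes was 0.01 and these class medians were -0.37, 0.10 and 0.13. The counts were then 3 higher and 7 lower mitotic kinesins, 8 higher and 5 lower transport kinesins, and 1 higher and 1 lower among the others.

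**Figure D2:**
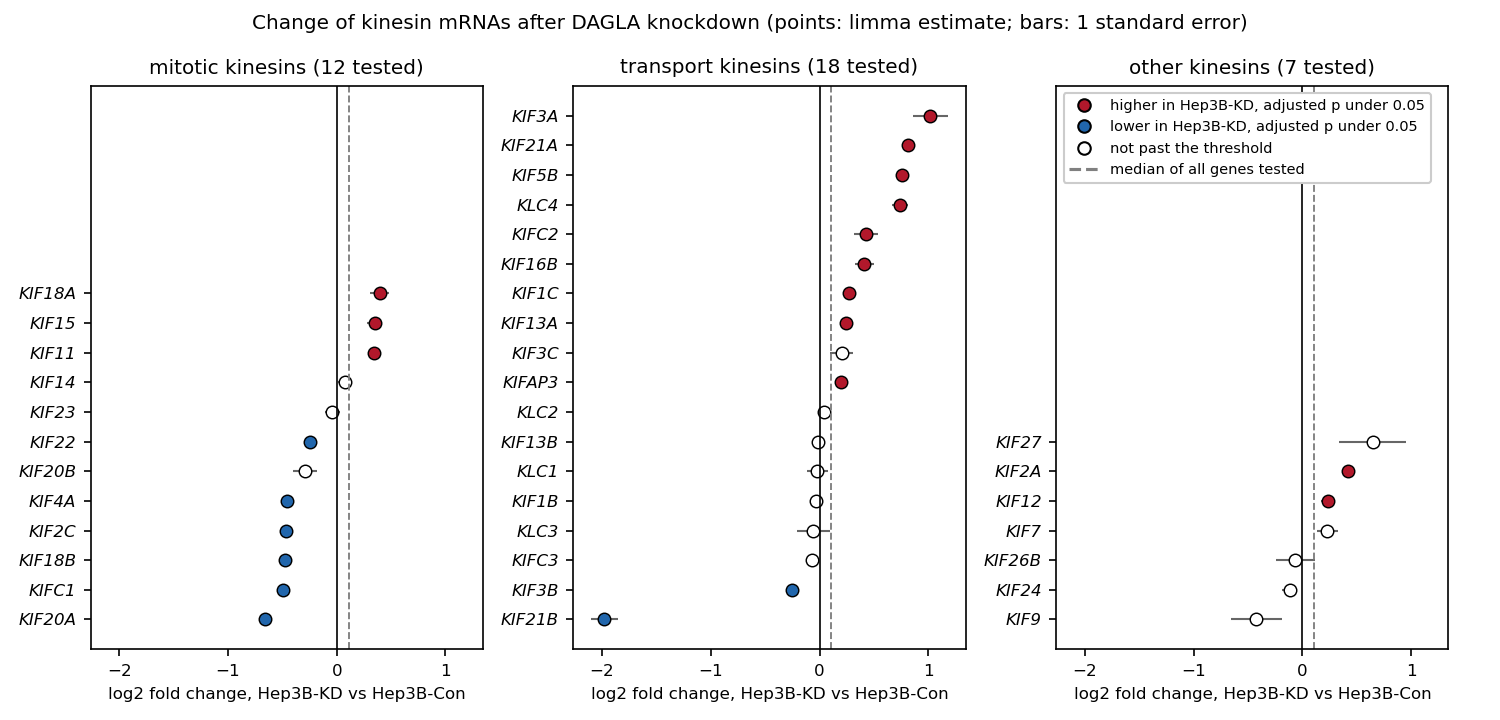
Log2 fold change of Hep3B-KD against Hep3B-Con for each of the 37 kinesins tested, by class, with 1 standard error as the bar, an adjusted p under 0.05 shown by colour and the median of all genes (0.11) as the dashed line. The median lies at -0.27 for the mitotic and at 0.20 for the transport kinesins (0.03 within bins of exon length), with KIF21B alone at -1.98.

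Summed over each class, the mitotic kinesins came to 218, 223 and 224 FPKM in the Hep3B-Con libraries and to 172, 176 and 176 in Hep3B-KD. The transport kinesins came to 184, 186 and 186 FPKM in Hep3B-Con and to 218, 215 and 217 in Hep3B-KD. The ratio of the mitotic to the transport sum was 1.18, 1.2 and 1.2 in Hep3B-Con and 0.789, 0.817 and 0.809 in Hep3B-KD. In FPKM, mitotic kinesins thus made up the larger sum in every Hep3B-Con library and the smaller in every Hep3B-KD library. Exon lengths reach 7277 bases in the mitotic class (KIF14) and 19251 in the transport class (KLC1). Which sum is the larger therefore depends on the scaling to exon length. The sums are of FPKM without centring and weigh abundant genes most. KIF1C averaged 59.4 FPKM in Hep3B-Con and 71.8 in Hep3B-KD, KIF5B 17.6 and 29.8, and KIFC1 57.3 and 40.7. Fewer cells in mitosis and less of these mRNAs per cell cannot be told apart in bulk RNA.

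Of the 12 mitotic kinesins tested, 6 fell, 3 rose and 3 did not pass the threshold. That was 50% lower and 25% higher, beside 23.8% and 36.1% of all genes. KIF20A, which brings the Aurora B complex to the midzone of the anaphase spindle, had the lowest log2 fold change of the class. It stood at 26.8, 28.7 and 26.7 FPKM in Hep3B-Con and at 17.2, 16.8 and 17.8 in Hep3B-KD, a log2 fold change of -0.66 (SE 0.0394, limma adjusted p = 1.67e-05). KIF20A lies at chr5:138178719-138187715 (GRCh38, plus strand), and 5.05% of its exon bases are overlapped by exons of CDC23 and BRD8 on the other strand. Every Hep3B-KD library was below every Hep3B-Con library.

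KIFC1, a minus-end-directed motor that focuses spindle poles and gathers extra centrosomes, was the most abundant mitotic kinesin. Its FPKM was 56.2, 57.9 and 57.8 in Hep3B-Con and 38.5, 42 and 41.7 in Hep3B-KD, a log2 fold change of -0.49 (SE 0.0375, limma adjusted p = 4.89e-05). RPL12P1 overlaps 12.7% of its exon bases on the other strand. The groups were again apart.

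KIF2C, which depolymerises microtubules at centromeres and so corrects wrong attachments, stood at 27.7, 26.2 and 26.9 FPKM in Hep3B-Con and at 18.4, 19.9 and 20.1 in Hep3B-KD. It changed by -0.47 on the log2 scale (SE 0.0422, limma adjusted p = 0.000105). KIF22, a chromokinesin that pushes chromosome arms away from the poles, stood at 27.6, 26.1 and 28 FPKM in Hep3B-Con and at 23.1, 23.2 and 22.4 in Hep3B-KD. It fell by 0.25 on the log2 scale (SE 0.0342, limma adjusted p = 0.000796), and AC009133.4 overlaps 13% of its exon bases on the other strand. Both genes had their 3 Hep3B-KD libraries below all Hep3B-Con libraries.

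KIF18B, which shortens astral microtubules, averaged 25.6 ± 1.46 FPKM (SD, n = 3) in Hep3B-Con and 18.3 ± 0.714 in Hep3B-KD, a log2 fold change of -0.48 (limma adjusted p = 0.000213). KIF4A, a chromokinesin that also works at the central spindle with PRC1, averaged 22.6 ± 0.671 FPKM in Hep3B-Con and 16.4 ± 0.363 in Hep3B-KD, a log2 fold change of -0.46 (limma adjusted p = 3.85e-05). KIF4A shares 14.3% of its 50-base stretches with other genes, chiefly the copy KIF4B, so its level is uncertain by what the counting did with such reads. KIF4B itself had at most 12 reads in a library.

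The mitotic kinesins that rose were fewer and lower in level. KIF11, whose tetramers slide antiparallel microtubules apart and set up the bipolar spindle, averaged 14 ± 0.636 FPKM in Hep3B-Con and 17.8 ± 0.686 in Hep3B-KD, a log2 fold change of 0.35 (limma adjusted p = 0.000634). KIF15, which helps to keep the spindle bipolar beside KIF11, averaged 2.71 ± 0.0543 and 3.48 ± 0.243 FPKM, also 0.35 (limma adjusted p = 0.00435). KIF18A, which dampens the movements of aligned chromosomes, averaged 2.35 ± 0.118 and 3.13 ± 0.276 FPKM, a log2 fold change of 0.40 (limma adjusted p = 0.00634). For each of the 3, all Hep3B-KD libraries were above all Hep3B-Con libraries.

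These 3 genes differed from the 6 that fell in base composition and length. The GC content of their longest transcripts was 37% to 41.2%, against 46.4% to 58.9% in the 6, and their exon lengths were 4668 to 5285 bases, against 3345 to 4655. Over all genes tested, the median log2 fold change ran from 0.40 in the lowest of 10 equal bins of GC content to -0.02 in the highest. When the libraries were centred within 10 bins of GC content, an alternative chosen after seeing the data, 0 mitotic kinesins were higher and 9 were lower. KIF11 then stood at -0.05 (limma adjusted p = 0.429), KIF15 at 0.17 (0.0609) and KIF18A at 0.00 (0.986). With quantile normalization KIF15 (0.15, limma adjusted p = 0.105) and KIF18A (0.18, 0.119) also lost their calls. The 6 falls kept their calls at -0.69 to -0.24. Centring within 10 bins of exon length left 3 higher and 7 lower. The part of base composition in these values was not tested further.

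The other 3 mitotic kinesins did not pass the threshold. KIF23, the motor of centralspindlin, averaged 10.4 ± 0.229 FPKM in Hep3B-Con and 10.1 ± 1.03 in Hep3B-KD, with overlapping groups (log2 fold change -0.04, limma adjusted p = 0.668). KIF14, which acts with citron kinase in cytokinesis, averaged 3.54 ± 0.225 and 3.73 ± 0.111 FPKM (0.07, limma adjusted p = 0.357). KIF20B, needed late in cytokinesis, averaged 1.3 ± 0.0635 and 1.04 ± 0.0453 FPKM on 113 to 161 reads. Its groups did not overlap, and its log2 fold change of -0.29 had a limma adjusted p of 0.0607. KIF20B was lower past the threshold in 7 of the 19 alternatives, with log2 fold changes of -0.68 within bins of GC content (limma adjusted p = 0.00171), -0.55 with quantile normalization (0.00442), -0.42 within bins of exon length (0.0156), -0.39 after centring on the median log ratio (0.0203) and -0.31 to -0.29 under 3 other variance models (0.00609 to 0.0284). Within bins of GC content KIF14 and KIF23 were also lower, at -0.32 (limma adjusted p = 0.00501) and -0.22 (0.0346).

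**Figure D3:**
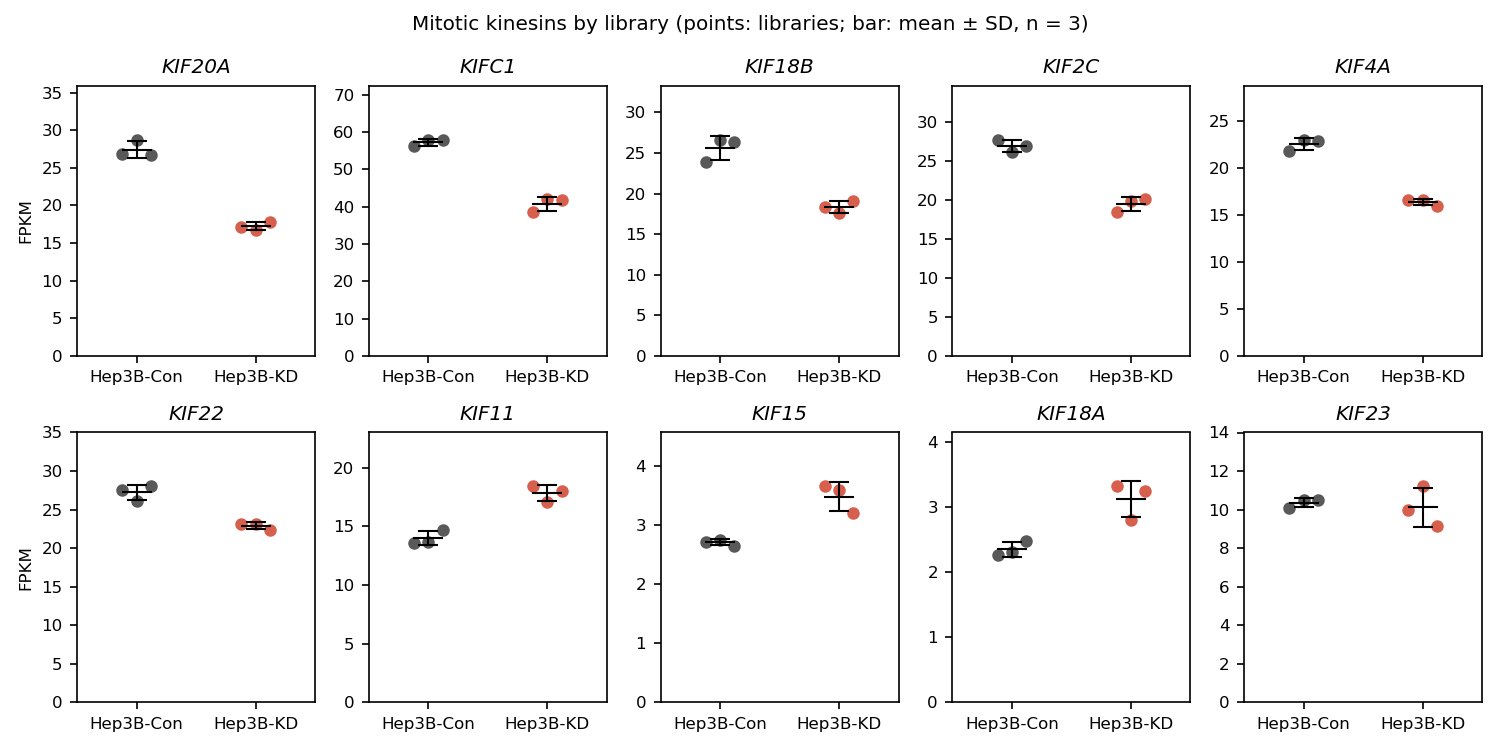
FPKM of 10 mitotic kinesins in each library, with Hep3B-Con in grey, Hep3B-KD in red and the mean ± SD (n = 3) in black, on axes that start at 0. KIF20A, KIFC1, KIF18B, KIF2C, KIF4A and KIF22 are lower in all 3 Hep3B-KD libraries and KIF11, KIF15 and KIF18A higher (the latter 3 not past the threshold after centring on GC content), whereas KIF23 overlaps.

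A list of 18 genes of G2/M and its control, named G2/M genes here, was set beside the mitotic kinesins. Of the 18 G2/M genes 12 fell and 4 rose, 66.7% and 22.2% beside 23.8% and 36.1% of all genes. Their median log2 fold change was -0.40, and their summed level was 835 to 847 FPKM in Hep3B-Con and 617 to 625 in Hep3B-KD. The 4 that rose were TOP2A (log2 fold change 0.31), CENPF (0.27), TTK (0.19) and MKI67 (0.16). The 3 with the greatest called changes were PTTG1 (securin, -1.10), BUB1B (a spindle checkpoint kinase, -0.73) and MYBL2 (a transcription factor of late cell cycle genes, -0.67). Centring within bins of GC content gave 1 higher and 14 lower G2/M genes. Of the 15 tested partners and regulators of mitotic kinesins, 7 fell and 1 rose, 46.7% and 6.67% (median -0.18). Their summed level was 559 to 572 FPKM in Hep3B-Con and 389 to 397 in Hep3B-KD. TPX2, which activates Aurora A on the spindle, averaged 193 and 110 FPKM (log2 fold change -0.81), AURKB 54.8 and 32.4 (-0.76) and INCENP, which holds Aurora B in its complex, 49 and 29.5 (-0.73). CENPE had a log2 fold change of -0.17 (limma adjusted p = 0.369), and its groups overlapped. How far the cell cycle phase of the cells set the level of the mitotic kinesins was not tested.

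**Figure D4:**
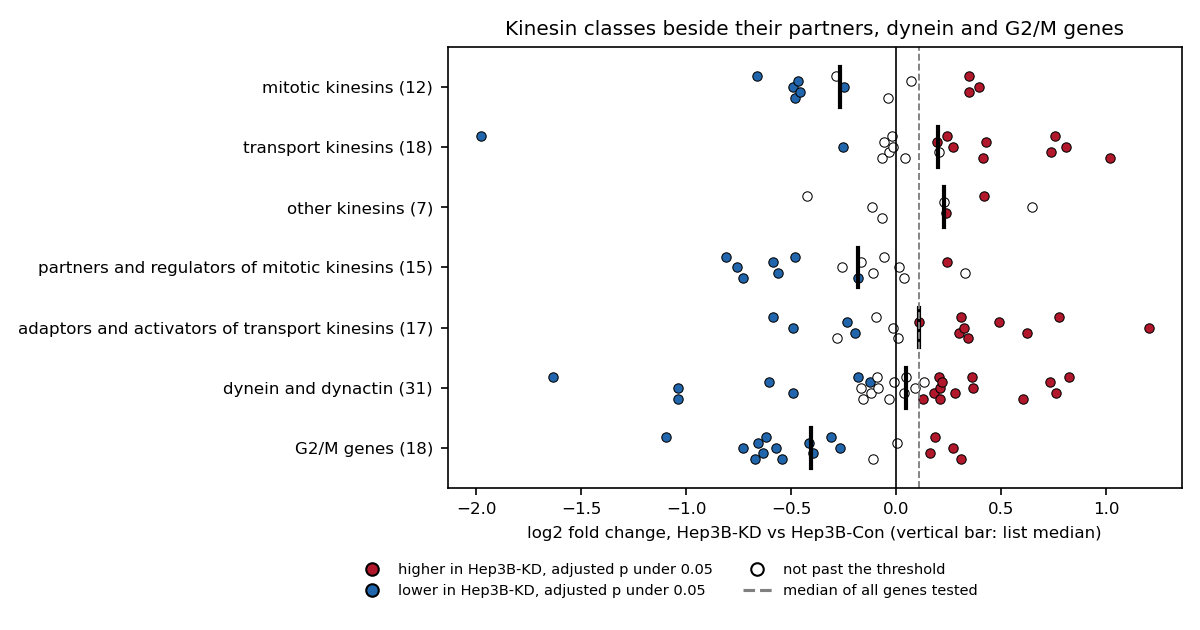
Log2 fold change of every tested gene in the kinesin classes, their partners and adaptors, dynein and dynactin, and the G2/M genes, with the list median as a black bar and the median of all genes (0.11) dashed. The medians of the mitotic kinesins (-0.27), their partners (-0.18) and the G2/M genes (-0.40) lie below 0, and those of the transport kinesins (0.20, but 0.03 within bins of exon length) and the other kinesins (0.23) above it.

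Of the 18 transport kinesins tested, 9 rose, 2 fell and 7 did not pass the threshold. The shares were 50% higher and 11.1% lower, beside 36.1% and 23.8% of all genes. The balance depended on the scaling. Within bins of exon length 6 were higher and 6 lower (median log2 fold change 0.03), with quantile normalization 6 higher and 4 lower (0.04), and within bins of GC content 8 higher and 3 lower (0.11). In kinesin-1, a pair of heavy chains carries the motor and a pair of light chains binds cargo. KIF5B, the ubiquitous heavy chain, stood at 17.4, 18.1 and 17.3 FPKM in Hep3B-Con and at 30.6, 29 and 29.8 in Hep3B-KD. That was a log2 fold change of 0.76 (SE 0.0319, limma adjusted p = 4.24e-06), 0.47 after centring within bins of GC content. KIF5B lies at chr10:32009010-32056431 (GRCh38, minus strand), and no exon base of another gene overlaps it. It made up 98.3% of the heavy chain FPKM in Hep3B-Con and 98.5% in Hep3B-KD. The neuronal heavy chains were low in both groups, with KIF5A at 5 to 8 reads a library and KIF5C at 27 to 60.

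The light chains did not move with KIF5B as a group. KLC4 stood at 1.56, 1.53 and 1.68 FPKM in Hep3B-Con and at 2.71, 2.72 and 2.74 in Hep3B-KD, a log2 fold change of 0.74 (SE 0.0721, limma adjusted p = 0.000152), and 12.8% of its exon bases are overlapped on the other strand, among others by CUL7 and MRPL2. KLC2, the most abundant light chain, averaged 12.5 ± 0.281 and 12.8 ± 0.433 FPKM (0.04, limma adjusted p = 0.36). KLC1 averaged 1.53 and 1.51 FPKM and KLC3 2.2 and 2.09, neither past the threshold, although KLC1 was lower within bins of exon length (-0.28, limma adjusted p = 0.0406) and with quantile normalization (-0.26, 0.0474). XRCC3, BAG5 and AL139300.1 overlap 30.3% of KLC1's exon bases on the other strand and 10.3% on the same, so its level is uncertain. Summed, the heavy chains went from 17.9 ± 0.355 to 30.2 ± 0.81 FPKM and the light chains from 17.8 ± 0.521 to 19.2 ± 0.49.

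Kinesin-2, the motor of intraflagellar transport into cilia, is made of KIF3A, KIF3B (or KIF3C) and KIFAP3. Its motor subunits moved in opposite directions. KIF3A stood at 0.697, 0.948 and 1.07 FPKM in Hep3B-Con, on 84 to 122 reads, and at 1.96, 1.9 and 1.88 in Hep3B-KD, on 209 to 214 reads. Its log2 fold change was 1.02 (SE 0.159, limma adjusted p = 0.00146), and 0.63 after centring within bins of GC content. KIF3A is at chr5:132692628-132737638 (GRCh38, minus strand). All 3 Hep3B-KD libraries were above the highest Hep3B-Con library.

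KIF3B, far more abundant, stood at 25.5, 27.5 and 26.7 FPKM in Hep3B-Con and at 22.6, 22.7 and 21.6 in Hep3B-KD, a log2 fold change of -0.25 (SE 0.037, limma adjusted p = 0.00111). The ratio of KIF3A to KIF3B was 0.0273, 0.0345 and 0.04 in Hep3B-Con and 0.0866, 0.0836 and 0.0871 in Hep3B-KD, without overlap. KIFAP3, the accessory subunit that links the pair to cargo, averaged 4.02 ± 0.0806 and 4.62 ± 0.242 FPKM (log2 fold change 0.19, limma adjusted p = 0.0209). It turned to -0.20 (0.0125) after centring within bins of GC content, and its adjusted p was 0.058 to 0.0676 when either of Hep3B-Con replicates 1 and 2 or of Hep3B-KD replicates 1 and 2 was left out. KIF3C averaged 1.77 ± 0.217 and 2.05 ± 0.0666 FPKM (0.21, limma adjusted p = 0.14). The homodimeric KIF17 was under the filter at 11 to 30 reads.

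The greatest change of any kinesin was in KIF21B, a kinesin-4 motor that slows microtubule growth and is known mainly from neurons and immune cells. It stood at 2.46, 2.51 and 2.71 FPKM in Hep3B-Con, on 526 to 549 reads, and at 0.54, 0.538 and 0.655 in Hep3B-KD, on 104 to 132 reads. The log2 fold change was -1.98 (SE 0.12, limma adjusted p = 1.81e-05), a ratio of 0.225. KIF21B lies at chr1:200969390-201023700 (GRCh38, minus strand), and no exon of another gene overlaps its exons. Its paralogue KIF21A, which guides microtubules at the cell cortex, went the other way. KIF21A stood at 7.92, 7.6 and 7.77 FPKM in Hep3B-Con and at 13.6, 13.6 and 13.8 in Hep3B-KD, a log2 fold change of 0.81 (SE 0.0319, limma adjusted p = 3.21e-06). KIF21A is at chr12:39293228-39443390 (GRCh38, minus strand), also without overlap. The ratio of KIF21A to KIF21B was 3.21, 3.03 and 2.86 in Hep3B-Con and 25.3, 25.3 and 21.1 in Hep3B-KD. Both changes kept their calls within bins of GC content (KIF21B -1.97, KIF21A 0.63) and of exon length (KIF21B -2.24, KIF21A 0.55).

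Whether KIF21B carries a match to the hairpin was checked, since a short hairpin RNA can lower genes that pair with the seed of its guide. The 19-base target of the DAGLA hairpin and its guide strand (the reverse complement, with guide bases 2 to 8 as the seed) give a seed site of the letters GCCTTCA. In the longest annotated 3′ UTR of KIF21B this site occurs 1 time, shown here in capitals with its neighbours.
KIF21B: cagaagggggaGCCTTCAggcctggacaa
The site was found in 5 of the 37 tested kinesins (13.5%), beside 14.6% of the 11189 tested genes with such a UTR. The 5 were KIF21B (1 site), KIF3B (2), KIF24 (1), KIF26B (2) and KLC1 (3). Of these, KIF21B and KIF3B were lower in Hep3B-KD and the other 3 did not pass the threshold, whereas 23.8% of all genes tested were lower. With quantile normalization KLC1 and KIF24 were lower too, at -0.26 (limma adjusted p = 0.0474) and -0.29 (0.0116). KIF17 and KIF6, under the filter, also carry 1 site each. The share of lower genes among all genes with the site was not computed. The part of seed pairing in the fall of KIF21B was not tested.

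Kinesin-3 motors carry vesicles and endosomes over long distances. KIF1C, which moves dense-core vesicles and Golgi-linked cargo, was the most abundant kinesin of all. It stood at 59.7, 58.1 and 60.4 FPKM in Hep3B-Con and at 72.2, 71 and 72.2 in Hep3B-KD, a log2 fold change of 0.27 (SE 0.0214, limma adjusted p = 5.61e-05). KIF13A, which serves endosomes, averaged 17.7 ± 0.313 and 20.9 ± 0.365 FPKM (0.24, limma adjusted p = 0.000334), but -0.02 (0.502) within bins of exon length. KIF16B, an early endosome motor, averaged 1.57 ± 0.129 and 2.12 ± 0.0324 FPKM (0.41, limma adjusted p = 0.00618), and 0.23 (limma adjusted p = 0.0636) within those bins and 0.17 (0.138) with quantile normalization. KIF1B averaged 7.65 ± 0.369 and 7.46 ± 0.137 FPKM and KIF13B 9.43 ± 0.0372 and 9.32 ± 0.0806. Neither passed the threshold, with log2 fold changes of -0.03 and -0.02. Both were lower after centring on the median log ratio, at -0.14 (limma adjusted p = 0.0389) and -0.12 (0.0129). KIF1A, a neuronal motor of synaptic vesicle precursors, was under the filter at 52 to 98 reads.

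The minus-end-directed transport kinesins were KIFC2 and KIFC3. KIFC2 averaged 2.2 ± 0.264 and 2.99 ± 0.286 FPKM, a log2 fold change of 0.43 (limma adjusted p = 0.014), but 0.21 with quantile normalization (0.165), and FOXH1 overlaps 17.8% of its exon bases on the other strand. KIFC3, which works at adherens junctions and at the Golgi, averaged 7.59 ± 0.148 and 7.25 ± 0.399 FPKM, and its groups overlapped (-0.07, limma adjusted p = 0.283). It was lower after centring on the median log ratio (-0.17, limma adjusted p = 0.0223), within bins of exon length (-0.25, 0.00372) and with quantile normalization (-0.16, 0.0322).

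**Figure D5:**
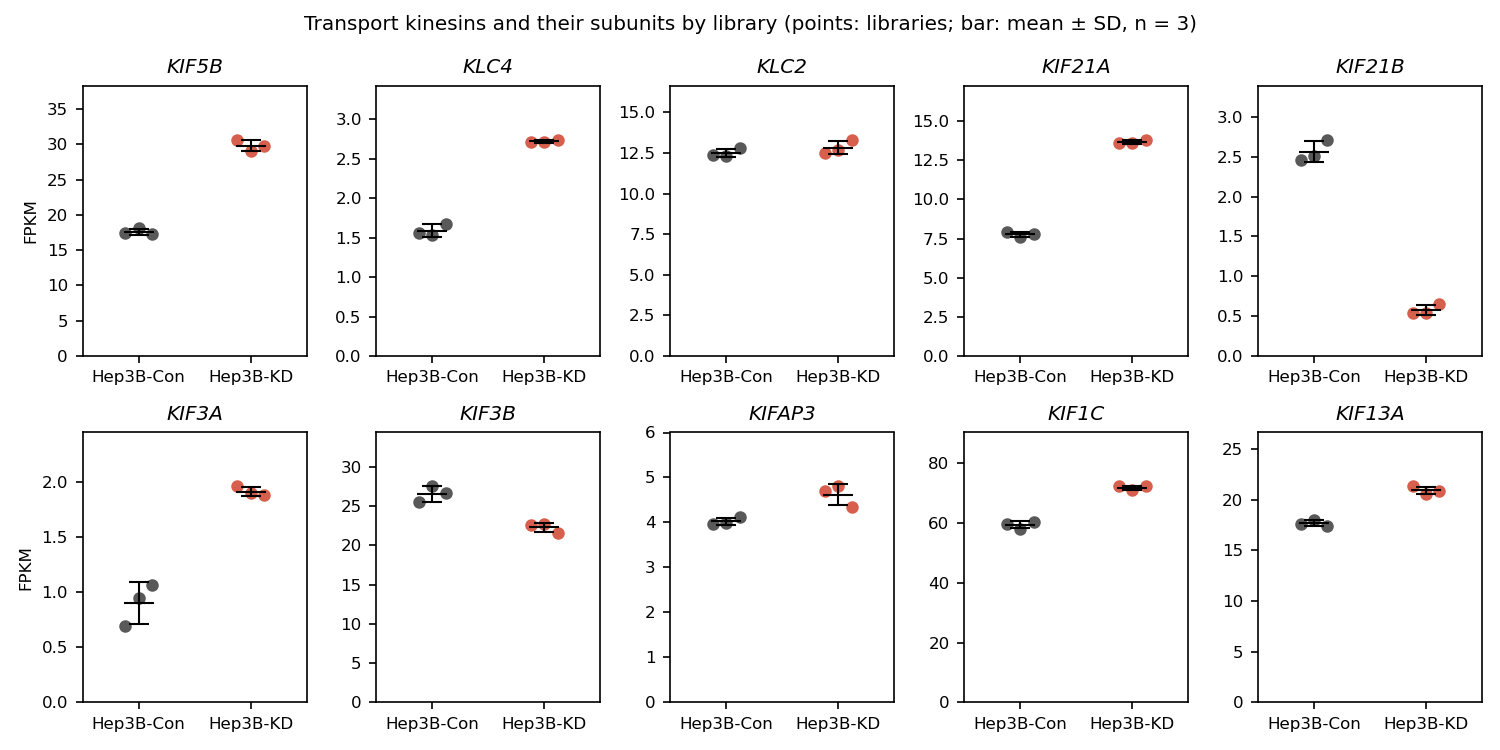
FPKM of 10 transport kinesins and subunits in each library, with Hep3B-Con in grey, Hep3B-KD in red and the mean ± SD (n = 3) in black, on axes that start at 0. KIF5B, KLC4, KIF21A and KIF3A are higher in all 3 Hep3B-KD libraries, KIF21B and KIF3B lower, and KLC2 overlaps. KIFAP3 and KIF13A are also higher, but not after centring on GC content and exon length, respectively.

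Adaptors and activators of transport kinesins were tested for 17 genes, of which 9 rose and 4 fell, 52.9% and 23.5% beside 36.1% and 23.8% of all genes. Their median log2 fold change was 0.11, that of all genes also 0.11. Within bins of exon length 5 were higher and 6 lower. MAPK8IP1 (JIP1), an adaptor between kinesin-1 and its cargo, averaged 1.41 and 3.37 FPKM (1.20), KIDINS220, a membrane scaffold, 4.31 and 7.44 (0.78) and KTN1, a kinesin receptor of the endoplasmic reticulum, 2.16 and 3.38 (0.62). Dynein and dynactin, which carry cargo in the opposite direction to most kinesins, had 13 rises and 7 falls among 31 genes tested (median 0.05), 41.9% and 22.6%, which is near the shares of all genes. Centring turned the balance, to 9 higher and 10 lower within bins of exon length and to 8 higher and 12 lower within bins of GC content. Their summed level was 529 to 534 FPKM in Hep3B-Con and 536 to 540 in Hep3B-KD. The 3 with the greatest called changes were all lower: NDE1 (-1.64), DYNLL2 (-1.04) and BICD2 (-1.04), a dynein regulator, a light chain and a cargo adaptor.

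Among the 7 tested other kinesins, 2 were higher and 0 were lower. The share of 28.6% higher was below the 36.1% of all genes, of which 23.8% were lower. KIF2A, which depolymerises microtubules at spindle poles and in neurons, stood at 8.61, 9.28 and 8.82 FPKM in Hep3B-Con and at 11.4, 12.1 and 12.3 in Hep3B-KD (log2 fold change 0.42, SE 0.0463, limma adjusted p = 0.000284). IPO11 overlaps 8.97% of its exon bases on the same strand. KIF2A is of the kinesin-13 family, as is KIF2C of the mitotic class. Grouped there, KIF2A would count as a rise of that class. KIF12, known from inherited cholestasis, stood at 4.74, 4.68 and 4.69 FPKM in Hep3B-Con and at 6.04, 5.41 and 5.24 in Hep3B-KD (0.24, SE 0.0615, limma adjusted p = 0.0147). After centring on the median log ratio its adjusted p was 0.105, and with quantile normalization 0.264. Both genes had no overlap between the groups.

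KIF7, a Hedgehog regulator at the tip of the cilium, stood at 3.5, 3.27 and 3.53 FPKM in Hep3B-Con and at 3.68, 4.69 and 3.82 in Hep3B-KD (0.23, SE 0.0985, limma adjusted p = 0.0853). Its paralogue KIF27 averaged 0.528 ± 0.228 and 0.852 ± 0.166 FPKM on 31 to 85 reads (0.65, limma adjusted p = 0.112), and 31.7% of its 50-base stretches occur in other genes, so that its level is uncertain. KIF9, a motor of motile cilia, averaged 0.589 ± 0.0409 and 0.415 ± 0.0517 FPKM on 35 to 65 reads (-0.42, limma adjusted p = 0.162). Its groups did not overlap, and it was lower past the threshold with eBayes without the trend (-0.42, limma adjusted p = 0.01), an ordinary linear model (-0.42, 0.0243), quantile normalization (-0.76, 0.0338) and voom (-0.50, 0.04). KIF9-AS1 and KLHL18 overlap 17.9% of its exon bases on the other strand. KIF24, a centriolar kinesin, had a log2 fold change of -0.12 (limma adjusted p = 0.202; -0.29 and 0.0116 with quantile normalization) and KIF26B one of -0.07 (limma adjusted p = 0.772). Without Hep3B-Con replicate 3, KIF27 passed the threshold at 0.92 (limma adjusted p = 0.0321). With voom KIF27 passed at 0.76 (limma adjusted p = 0.0105) and KIF7 at 0.24 (0.0314).

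Under the filter stood 7 kinesins: KIF1A, KIF5A, KIF5C and KIF17 of the transport class, KIF4B of the mitotic class, and KIF6 and KIF26A of the others. KIF26A had at most 1 read in a library, and a count of 0 allows up to 3 reads, so no fold is given. KIF6 had 32 to 45 reads, and its groups overlapped. KIF4B, KIF5A, KIF17 and KIF26A overlapped as well. KIF1A had 71, 98 and 76 reads in Hep3B-Con and 60, 52 and 55 in Hep3B-KD, and KIF5C had 38, 27 and 47 reads and then 57, 60 and 51. Their groups did not overlap, with KIF1A lower and KIF5C higher in Hep3B-KD. Without the filter neither passed the threshold, with log2 fold changes of -0.32 for KIF1A (SE 0.255, limma adjusted p = 0.468) and 0.52 for KIF5C (SE 0.275, limma adjusted p = 0.244).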

How the data were processed

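The submitters' processing notes name TopHat2 2.0.12, Bowtie2 2.0.6 and build GRCh37, and the methods a TruSeq RNA kit. The counting tool and its use of strand are not given in the sources used here. The authors deposited FPKM values for 29908 genes with 1 column per library and 0 other columns of values. Multiplied by library total and GENCODE release 29 (GRCh38) exon length, 100% of values came within 0.01 of a whole read, so gene coordinates are given on GRCh38. Log2(FPKM + 0.1) values of genes whose mean FPKM reached 0.5 were compared with limma 3.58.1 in R 4.3.3 (lmFit, eBayes with trend, Benjamini-Hochberg), without a replicate block.

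Nothing in the sample records says that the 3 replicates came from separate cultures, beyond the design text calling them biological, so p-values measure the spread between these libraries. Counting error is not modelled, and PCR copies cannot be removed. Kinesin classes, context lists and motifs were chosen with earlier results of these data known. Values per library are given for kinesins past the threshold with at least a 1.5-fold change, for the 3 most abundant of each class and for DAGLA. The 3 greatest called changes of each context list, the G2/M genes that rose and CENPE are named with group means or log2 fold changes.

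The fit was tested on simulated reads that held no trend with GC content or exon length, so such trends were not covered. Alternatives were other pseudocounts, filters, scalings and variance models, voom on the recovered reads, a replicate block and each library left out. Centring within bins of GC content or exon length was added after seeing the data. Promoters are from RefSeq (GRCh38.p14). Python 3.11.15, numpy 2.4.6, pandas 2.3.3 and matplotlib 3.10.9 were used.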

Additional observations from a re-analysis of the deposited data

How the results depend on the processing

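Over 19 alternatives and the 37 kinesins, where the gene was tested, 634 log2 fold changes kept their direction and their side of the threshold. With the sign unchanged, 27 passed it newly and 17 lost it. A further 19 turned in sign, and some of these also crossed the threshold. Within bins of GC content KIF14 passed it and KIF11 lost it, and within bins of exon length KIF13A lost it. DAGLA kept its call under each of them, as did KIF20A, KIFC1, KIF18B, KIF2C, KIF4A, KIF22, KIF21A, KIF21B, KIF3A, KIF3B, KIF5B, KLC4, KIF1C and KIF2A. With centring on the median log ratio, 5 transport kinesins were lower, 1 other kinesin was higher and 1 lower, and 1 kinesin passed a 2-fold change. With quantile normalization the counts were 1 higher mitotic kinesin, 4 lower transport kinesins, 1 higher and 2 lower other kinesins, and 1 past 2-fold. Centring within bins of GC content gave 0 higher and 9 lower mitotic kinesins and 1 past 2-fold. Centring within bins of exon length gave 6 lower transport kinesins, 1 lower other kinesin and 1 past 2-fold. Voom gave 4 higher and 1 lower other kinesins, and eBayes without the trend and the ordinary linear model 1 lower each. With a pseudocount of 1 FPKM, 1 kinesin passed 2-fold. When each library was left out, 1 to 2 kinesins passed 2-fold, with 1 without Hep3B-Con replicate 1, where KIF3A had a log2 fold change of 0.86. The causes were not tested.

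Changes of sign were small except within bins of GC content. There KIF11 stood at -0.05, KIF14 at -0.32 and KIFAP3 at -0.20. Within bins of exon length, KIF13A stood at -0.02, KIF14 at -0.06 and KLC2 at -0.07. Centring on the median log ratio gave -0.03 for KIF14 and -0.06 for KLC2, and quantile normalization -0.09 for KIF14 and -0.04 for KIF3C. Rescaling to the same sum gave 0.01 for KIF13B and KLC1. With a library left out, KIF1B ran from -0.06 to 0.00, KIF23 from -0.11 to 0.03, KIF26B from -0.14 to 0.00, KLC1 from -0.06 to 0.03 and KLC3 from -0.15 to 0.09.

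No sign was seen that the replicate numbers pair the libraries, although this cannot show how the libraries were made. Deviations of same-numbered libraries from their group means correlated at -0.0134, -0.0656 and -0.0011. With the replicate number as a block, KIFAP3 alone lost its call (log2 fold change 0.19, limma adjusted p = 0.0586), and the counts stayed within 1.5 times of those without it. Few reads limit KIF26A, KIF5A and KIF4B, with at most 1, 8 and 12 in a library, and, among those tested, KIF27 (31 to 85) and KIF9 (35 to 65). The filter was on FPKM and not on reads, so KIF1A was left out at 52 to 98 reads.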
